A study of Mus musculus with 192 samples.

Results

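The cells described here are 56 erythroid burst-forming unit (BFU-E) cells from mouse fetal liver. They are the wells of the plate labelled BFU-E that held at least 100000 gene-assigned counts and 2000 genes with a count, and in which the summed level of Gata1, Klf1, Epor and Mfsd2b reached 100 counts per 1000000 (CPM). Of 96 BFU-E wells, 92 passed the filter on counts and genes, 56 were chosen by the summed level, and 36 were not. The whole series holds 191 cells on 2 plates, the other plate being labelled colony-forming unit-erythroid (CFU-E), with 89 cells kept by the same filter. The mice were C57/Bl6J at embryonic day 14.5, with no treatment or genetic change named in the labels. After lysis of mature red cells, magnetic beads took out cells with lymphoid antigens (CD3e and CD45R), myeloid antigens (Ly-6G, CD11b and CD16/32), the erythroblast antigen Ter119, the stem cell antigen Sca-1 or the megakaryocyte integrin CD41. The rest were stained for CD117, CD71, CD24 and with propidium iodide and deposited singly in wells for SmartSeq2, a full-length method that amplifies cDNA by PCR without molecular identifiers. The sources used here name no sort gates, no number of mice and no pooling of livers, so the plate counts as 1 sample. Cells are not replicates, no test was made over them, and every correlation is a description of 56 cells from that plate. The labels name no plates or lanes, and the set of wells of a cell type is called a plate here. They carry a numbered tag, the same in all BFU-E cells and another in all CFU-E cells, whose meaning is not given.

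A BFU-E is the earliest progenitor committed to the red cell lineage, known for the large, late colonies it forms in culture. It still depends on stem cell factor through the receptor Kit, and it turns gradually to erythropoietin as it becomes a CFU-E. GATA1 and KLF1 switch on the genes of heme synthesis, the red cell membrane and globin along this path, while genes shared with stem cells and megakaryocyte progenitors, such as Meis1, are turned down. In the fetal liver these progenitors divide rapidly, so genes of DNA replication and mitosis are also active in them.

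The summed level of the 4 genes that chose the cells ran from 100.2 to 2432 CPM, with a median of 1315 CPM. The 4 lowest cells held 100.2 (cell 91), 115.7 (cell 54), 151 (cell 12) and 175 CPM (cell 74), and the next held 594 CPM (cell 14). Just outside the threshold lay cells at 42.7, 31.9 and 30.2 CPM. No cell lay between 175 and 594 CPM, and none between 42.7 and 100.2 CPM. These values chose the cells and are given as a description. Because the 4 lowest cells stand apart, results are given for all 56 cells and again for the 52 cells at 200 CPM or more.

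**Figure D1:**
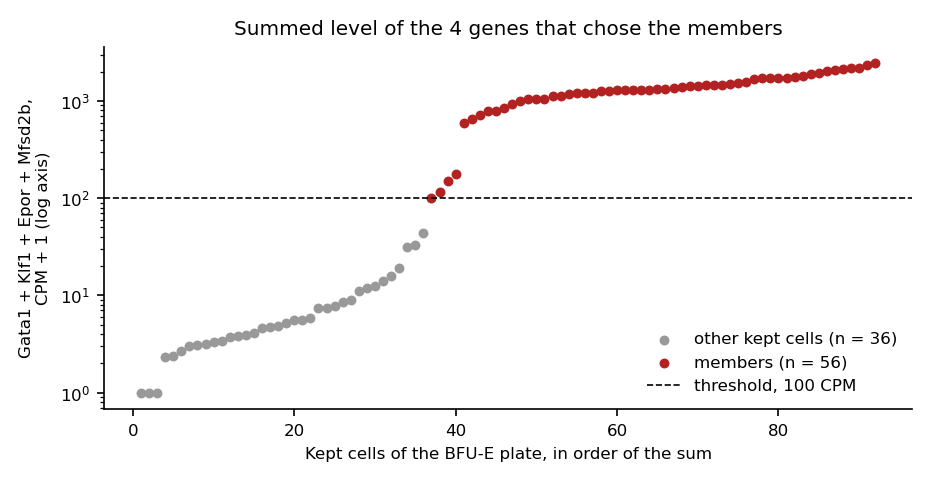
Summed CPM of Gata1, Klf1, Epor and Mfsd2b, plus 1, on a log axis for each of the 92 kept cells of the BFU-E plate, in order of the sum. Red points are the 56 chosen cells and grey points the other 36, with the threshold of 100 CPM as a dashed line; the 4 lowest red points, 100.2 to 175 CPM, lie apart from the rest, which begin at 594 CPM.

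Total counts ran from 114288 to 3864040 per cell (median 1108990), and genes with a count from 4517 to 9057 (median 7891). To compare cells at equal depth, each was thinned to 100000 counts, so that 1 count is worth 10 CPM, and all levels below are on that scale unless stated. Cells 12 and 54 held the myeloid granule enzyme Mpo at 5410 and 5770 CPM, and Cd34, a progenitor surface protein, at 1740 and 1330 CPM. Cell 91 held Cd34 at 1780 CPM, the cytokine receptor Flt3 at 1130 CPM and the leukocyte actin-bundling gene Lcp1 at 2410 CPM, with no count of Gata1 or Klf1. Cell 74 was the shallowest, and 23.1% of its counts came from ribosomal protein genes, against at most 6.61% in the 52 cells. Cell 58 had the lowest median correlation with the other cells, 0.28 against a median of 0.38 over cells, on 5269 genes with a count. Cell 75 held 223960 CPM of the unnamed repeat-derived gene Gm10800, and both albumin (Alb, 1440 CPM) and alpha-fetoprotein (Afp, 1590 CPM) were highest in it. None of these cells was removed, and the values that rest on them are named where they occur.

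The label was checked against the 6 given markers, of which Gata1, Klf1 and Mfsd2b also chose the cells. Gata1, the master erythroid transcription factor (chrX:7959260-7978071 in GRCm38), had 0 CPM in its lowest cell, a median of 315 CPM and a highest level of 960 CPM, with a count in 54 cells. Klf1, which activates globin and membrane genes, had 0, 135 and 710 CPM (lowest, median and highest), with a count in 50 cells. Mfsd2b, the sphingosine 1-phosphate exporter of red cells, had 0, 640 and 1820 CPM, with a count in 55. Of the markers that took no part in the choice, Muc13, a transmembrane mucin of early progenitors, had 0, 270 and 1670 CPM with a count in 54 cells. Ermap, an erythroid membrane protein of the Scianna blood group, had 0, 265 and 1000 CPM with a count in 43. Car1, a carbonic anhydrase that marks early erythroid progenitors, had 0, 125 and 3220 CPM with a count in 37. Summed over the 6 markers, cells ranged from 50 to 5600 CPM with a median of 1985 CPM, and the lowest of the 52 cells held 770 CPM. This sum holds 3 of the genes that chose the cells, so only Muc13, Ermap and Car1 bear on the label. Their means were 349, 296 and 378 CPM here, and 21.1, 0.83 and 2.78 CPM in the other 36 kept cells of the plate. The sum over the 6 markers had a median of 10 CPM in those 36 cells, but of 1650 CPM in the kept CFU-E cells. The contrast of the sum with the 36 cells was partly fixed in advance, because the sum holds genes that split the plate. Muc13, Ermap and Car1, which took no part in the split, also had higher means here than in those 36 cells. In CFU-E cells the sum was much closer to that of the 56 cells. Car1 by itself was lower in CFU-E cells, with a mean of 21.7 CPM. Car1 was at 0 in 19 of the 56 cells and Ermap in 13.

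**Figure D2:**
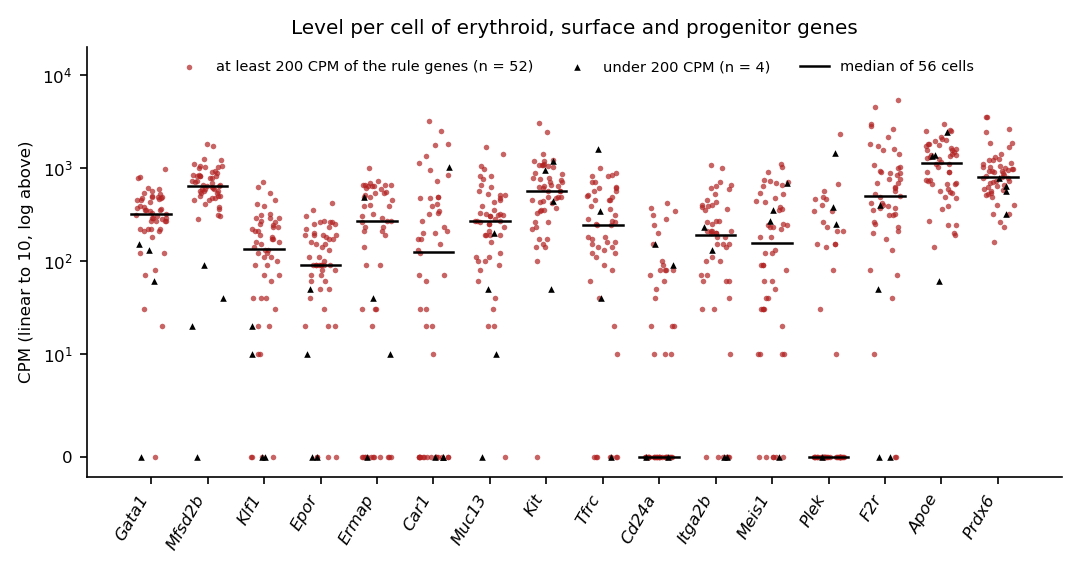
Level in CPM of 16 erythroid, surface and progenitor genes in each of the 56 cells, on an axis that is linear up to 10 CPM and logarithmic above. Red points are the 52 cells at 200 CPM or more of the 4 genes that chose the cells, black triangles the other 4, and bars the median of all 56; Car1, Plek and Cd24a show many cells at 0 beside others above 100 CPM.

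The most abundant transcripts per kilobase of exon belonged to translation, protein folding and the cytoskeleton. The translation elongation factor Eef1a1 led with 6054 CPM per kilobase, followed by the ribosomal proteins Rplp0 (2202) and Rpl4 (2159), the chaperone Hsp90ab1 (1755), the elongation factor Eef2 (1712) and the nucleolar protein Npm1 (1650 CPM per kilobase). Of the 20 most abundant nuclear protein-coding genes by this measure, 9 encoded ribosomal proteins. The tubulin Tuba1b (1447), the actin Actb (1255), the chaperone Hspa8 (1195) and the glycolytic enzyme Ldha (988.5 CPM per kilobase) were also among the 20. Eef1a1 varied little, with 1920 CPM in its lowest cell, a median of 15040 CPM and 22580 CPM in its highest. Rpl4 had 2250, 4275 and 7080 CPM, so all cells lay within a narrow band. Rplp1, another of the 9, had a lowest level of 110 CPM and a median of 345 CPM, and reached 3860 CPM in cell 74.

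Cell-to-cell variation was measured as the squared coefficient of variation of CPM, set against the running median of genes at the same mean level. The difference on the log2 scale is called the excess: a gene with an excess of 1 or more, whose squared variation was at least 2 times that of its peers, was called variable, and a gene at -1 or less was called even. Among 6760 genes with a mean of at least 20 CPM, 431 (6.38%) were variable and 386 (5.71%) were even. In the 52 cells, 344 of 6703 (5.13%) were variable and 510 (7.61%) even, and 247 genes were variable in both. Many calls rested on single cells: 254 of the 431 were lost when the gene's highest cell was left out, 131 of them with cell 74 and 49 with cell 58. Mt1, a metal-binding metallothionein, was the largest such case with an excess of 4.77, on 5590 CPM in cell 74 against a median of 60 CPM. The ribosomal protein genes Rps28 (excess 4.31) and Rps15 (4.21) followed, with 4060 and 7230 CPM in cell 74.

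**Figure D3:**
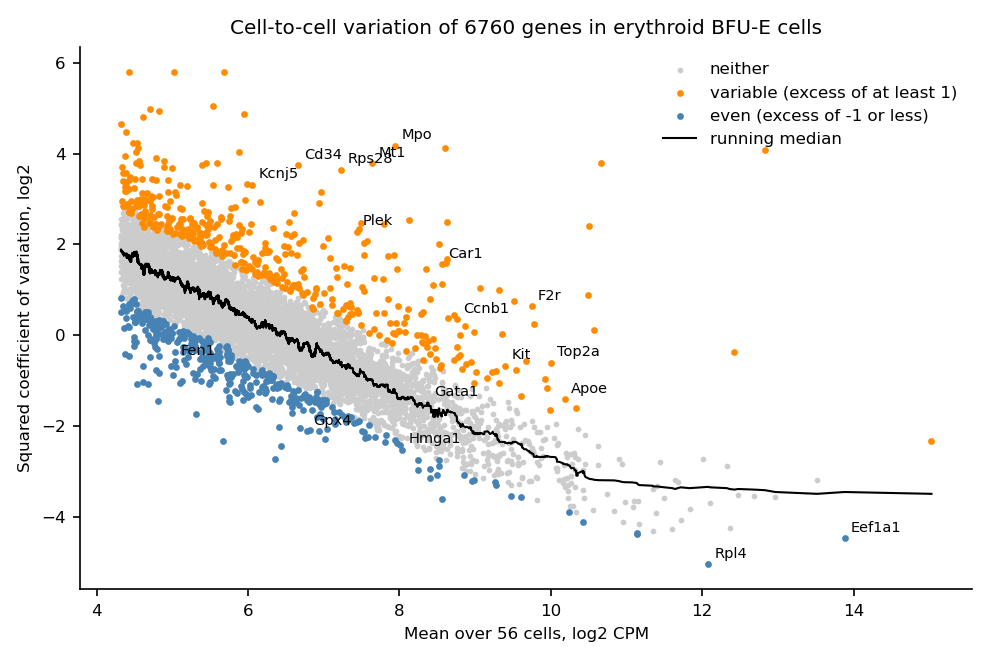
Squared coefficient of variation (log2) against mean level (log2 CPM) for 6760 genes over 56 cells, with the running median as a black line. Orange points are the 431 variable genes and blue points the 386 even genes; Mpo, Cd34, Car1 and F2r lie far above the line and Rpl4 below it.

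Among genes at 50 CPM or more that kept the call without their highest cell, the largest excess was that of Mpo, at 5.44. Its counts were concentrated in cells 12 and 54, the 5 highest cells holding 93.5% of them, and the third cell had 770 CPM. Without the 4 low cells Mpo had an excess of 2.43. Cd34 came next with an excess of 3.90, was at 1000 CPM or more only in cells 12, 54 and 91, and in the 52 cells had a mean under 20 CPM. These leading values thus describe 3 cells more than the group as a whole.

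Car1 and F2r followed in that order, and both calls were as large without the 4 low cells. Car1 (chr3:14766216-14808368) had a mean of 378 CPM (95% exact Poisson interval 362 to 394 CPM, counting error only). It was at 0 in 19 cells, at 100 CPM or more in 29 and at 1000 CPM or more in 7, with 3220 CPM in cell 77, 2490 in cell 31 and 1810 CPM in cell 25. Its excess was 3.33, and 3.46 in the 52 cells. F2r (chr13:95601803-95618487), the thrombin receptor PAR1, had 0, 495 and 5390 CPM (lowest, median and highest), the top values being in cells 61 and 35, and an excess of 3.23 (3.47 in the 52 cells). F2rl2, a receptor of the same family, was at 0 in most cells and reached 930 CPM, also in cell 61, with an excess of 2.53. Kcnj5, a potassium channel subunit, had a count in 14 cells only and 1290 CPM in cell 26, and its excess was 3.01. F2r was thus widely present, at 100 CPM or more in 47 cells, while Kcnj5 had no count in 42 and F2rl2 none in 40.

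Many genes known from stem cells and multipotent progenitors were variable. Of a list of 30, 16 reached 20 CPM, and 11 of these were variable with a median excess of 1.52. In the 52 cells the count was 8 of 14, with a median of 1.17. Over all genes the median excess is near 0 by construction and 6.38% were variable. A gene that passed the limit only through a few high cells had to be variable, so the share is a description. Meis1, a homeobox factor of stem cells, had 0, 155 and 1100 CPM (lowest, median and highest), with a count in 49 cells. Angpt1, a secreted ligand of the receptor Tek, had a median of 10 CPM and reached 990 CPM. Apoe, an apolipoprotein, was present in all 56 cells at 60, 1140 and 3000 CPM, and its excess of 1.43 (1.67 in the 52 cells) came from a broad spread rather than from absent cells. Members of the list below the limit included Hoxa9 with a mean of 9.82 CPM and Mecom at 1.61 CPM.

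The erythroid transcription factors lay close to the trend. Of 20 measured, 0 were variable and 3 were even, with a median excess of 0.00, beside 6.38% and 5.71% of all genes. With so few genes, 0 is near the share of all genes. In the 52 cells the only variable factor was Etv6, an ETS-family repressor (excess 1.03). Gata1 itself lay on the trend with an excess of 0.01. Its level and that of Klf1, also in the list, took part in choosing the cells, so their spread is only a description. Gfi1b, a repressor of erythroid and megakaryocyte genes, had 0, 120 and 670 CPM and the highest excess of the list, 0.94. The even members were Lmo2 (-1.05), Ldb1 (-1.09) and Tcf3 (-1.16), which all belong to the complex that joins GATA1 to TAL1. They were low, at 100 CPM or more in 11, 3 and 3 cells, and Gata1 and Tal1 of that complex were not even. Bcl11a, the repressor of embryonic and fetal globin, had counts in all 56 cells, from 10 to 740 CPM, with an excess of -0.10.

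The list of red cell membrane and maturation genes included 6 variable members of 22 measured, in the 56 and in the 52 cells, beside 6.38% and 5.13% of all genes. The list also holds Mfsd2b, which took part in choosing the cells and was not among the 6. Besides Car1 and Ermap (excess 1.25) these were Car2, Slc14a1, Kel and Rhd. Car2, a second carbonic anhydrase, had 0, 490 and 2280 CPM, the highest in cell 91, and an excess of 1.42. Slc14a1, a urea transporter that carries the Kidd blood group, had 0, 120 and 1220 CPM. Kel, the Kell blood group metalloprotease, reached 800 CPM in cell 58, had a median of 50 CPM, and lost the call without cell 58. Rhd, of the Rhesus complex, had a count in 15 cells and reached 330 CPM. Ank1, which ties the membrane skeleton to its anchors, had a median of 10 CPM, and Slc4a1, the anion exchanger band 3, had a mean of 0.71 CPM with a count in 2 cells.

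Of heme and iron genes, 25 were measured and only Tfrc was variable, a share near the 6.38% of all genes. Tfrc encodes CD71, the transferrin receptor used in the sort, and had 0, 240 and 1610 CPM, the highest in cell 74, with an excess of 1.53 (1.38 in the 52 cells). The heme enzymes Alad (median 210 CPM) and Urod (200 CPM) had counts in 51 and 53 cells, and neither was variable. The ferritin chains Fth1 and Ftl1 were present in every cell, at 170 to 1240 CPM and 290 to 1250 CPM. Alas2, the erythroid form of the first heme enzyme, had a mean of 7.86 CPM with a count in 14 cells, and was below the limit for measuring variation. No globin gene reached it either: Hba-a1 had a count in 7 cells and a mean of 4.11 CPM, of which cell 74 held 150 CPM. Without the 4 low cells the mean of Hba-a1 was 1.15 CPM. Reads of the near-identical alpha-globin copies may have been divided or dropped in counting. The embryonic genes Hba-x, Hbb-bh1 and Hbb-y were at 0 counts of 5600000 over the 56 cells, which allows up to 0.536 CPM, counting error only.

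Of 11 sort antigens 5 reached 20 CPM and all 5 were variable, beside 6.38% of all genes, with a median excess of 1.53. As above, a gene that reached the limit through a few high cells had to be variable. Kit, the stem cell factor receptor CD117, had 0, 565 and 3030 CPM with a count in 55 cells and an excess of 1.70. Itga2b, which encodes the depleted antigen CD41, had 0, 190 and 1060 CPM with a count in 47 cells. Cd24a had a count in 26 cells and reached 420 CPM in cell 9. Ptprc, the pan-leukocyte phosphatase CD45 whose isoform CD45R was depleted, had 0, 55 and 1260 CPM. Levels of Tfrc and Itga2b were opposed over the cells (Spearman rho -0.58 over the 56 cells and over the 52). At 100 CPM, 23 cells had both genes, 18 Tfrc alone, 15 Itga2b alone, and 0 had neither. Cd24a and Itga2b reached 100 CPM together in 1 cell only, with a rho of -0.57. Tfrc and Cd24a varied together (0.45, and 0.52 in the 52 cells), whereas Kit was related to none of the 3 beyond the range of most gene pairs (0.14, 0.07 and -0.06). CD71 and CD24 were stained for sorting and CD41 was depleted, so the gates can set these ranges, and their part was not tested. The antigens Cd3e, Ly6g, Itgam and Ly6a were at 0 counts in all 56 cells.

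Markers of other cell types were examined in the same cells. Of 15 megakaryocyte markers only Pf4 and Ppbp were at 0, and the sum per cell ran from 0 to 5890 CPM in cell 61, with a median of 530 CPM and Itga2b and Plek as the most abundant. Plek, the platelet protein kinase C substrate pleckstrin, was at 0 in 33 cells, reached 2310 CPM in cell 61 and 1430 CPM in cell 91, and had an excess of 3.15 (3.30 in the 52 cells). Of 17 granulocyte and monocyte markers Elane, Ly6c2 and Cebpe were at 0, and the median sum was 95 CPM, with 6990 CPM in cell 54 and at most 1270 CPM in the 52 cells. Of 12 mast cell and basophil markers 8 were at 0, among them Mcpt8, Tpsab1 and Fcer1a, and Cpa3, a mast cell protease, reached 1980 CPM in cell 54. The macrophage genes Adgre1, C1qa and Cd5l were at 0, as were 8 of 12 macrophage and 8 of 16 lymphoid markers, with highest sums of 670 and 250 CPM, both in cell 91. The endothelial gene Kdr was at 0, and Tek, a receptor of angiopoietin, reached 730 CPM in cell 41. All 13 hepatocyte markers had counts somewhere, with a median sum of 130 CPM and 3400 CPM in cell 75. The part of these RNAs in the variation described here was not tested, except where values without the cells are given.

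Genes that vary together were sought by Spearman correlation among the 3956 genes with a mean of at least 50 CPM and a count in at least 50% of the cells. The median rho over all pairs was 0.02, with 0.26 and -0.21 bounding the middle 90% of pairs. The highest and lowest pairs lay well outside that range, and some other pairs described below lay inside it. The highest pair was that of the mitochondrial genes mt-Nd6 and mt-Nd5 (0.85), which lie on opposite strands and overlap. How strand was treated in counting is not given, and the part of shared reads in this value was not tested. Next came the mitotic genes Nusap1 and Aurkb (0.83), Kif11 and Aurkb (0.82) and Ube2c and Plk1 (0.82). Of 215 variable genes eligible, 155 fell into 22 groups at a rho of 0.3, and 104 of 157 into 18 groups in the 52 cells.

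The tightest large group held 17 genes of mitosis, with a mean rho of 0.54. Ccnb1, the cyclin that drives entry into mitosis, had 0, 275 and 2190 CPM (lowest, median and highest) and was at 0 in 4 cells. Ube2c, the ubiquitin-conjugating enzyme of the anaphase-promoting complex, had 0, 70 and 1290 CPM and was at 0 in 15. Top2a, the topoisomerase that untangles sister chromatids, had 0, 1135 and 2950 CPM. Levels of Ube2c and Ccnb1 were highest in the same cell, cell 96, and had a rho of 0.78. The group also held Aurkb, Nusap1, Hmmr, Kpna2, Prc1, Kif11, Cdc20, Tubb4b, Cenpe, Mki67, Ccnf, Nek2, G2e3 and Cdc25b. The same 17 genes had a median rho of 0.55 in the 56 cells, 0.54 in the 52 and 0.33 in the 89 CFU-E cells, which took no part in finding the group.

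A second group of 7 genes, with a mean rho of 0.45, belonged mostly to the start of DNA synthesis. It held Uhrf1, which guides maintenance DNA methylation (0, 530 and 1930 CPM), Rrm2, the regulated subunit of ribonucleotide reductase (0, 340 and 1660 CPM), Ccne2, a cyclin of S phase entry (0, 30 and 810 CPM), Hells, Dtl, Msh6 and the endoplasmic reticulum chaperone Hspa5. Their median rho was 0.44 in the 56 cells and 0.34 in CFU-E cells. Ube2c and the replication licensing factor Cdt1 were opposed with a rho of -0.68, and Ube2c and Uhrf1 with -0.53 (-0.57 in the 52 cells, -0.45 in CFU-E cells). The promoters of both groups were read from RefSeq on GRCm38.p6, taking the 250 bases before the start and leaving out any that GENCODE places in an exon. The 4 shown are, of the leading genes of each group, the 2 with the fewest such bases. They are printed 5′ to 3′ on the strand of the gene, and capitals mark the motif CCAAT and the motif TTTGAA with its variant TTTAAA, on either strand (where the opposite strand holds the motif, the print shows ATTGG for the first and TTCAAA for the second). Kif11, a spindle motor, lies on the plus strand (chr19:37376132-37376381). Top2a lies on the minus strand (chr11:99024190-99024439). Uhrf1 (chr17:56303087-56303320) and Rrm2 (chr12:24708004-24708240) lie on the plus strand.
Kif11: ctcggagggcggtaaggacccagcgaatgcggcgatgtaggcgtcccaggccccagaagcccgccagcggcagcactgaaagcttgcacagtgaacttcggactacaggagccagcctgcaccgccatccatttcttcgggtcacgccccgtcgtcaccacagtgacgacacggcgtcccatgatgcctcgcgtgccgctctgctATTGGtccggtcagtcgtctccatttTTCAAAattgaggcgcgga
Top2a: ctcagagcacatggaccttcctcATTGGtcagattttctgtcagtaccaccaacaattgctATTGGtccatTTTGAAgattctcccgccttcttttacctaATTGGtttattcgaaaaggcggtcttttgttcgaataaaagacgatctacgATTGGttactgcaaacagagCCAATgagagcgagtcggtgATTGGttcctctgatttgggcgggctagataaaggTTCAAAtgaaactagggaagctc
Uhrf1: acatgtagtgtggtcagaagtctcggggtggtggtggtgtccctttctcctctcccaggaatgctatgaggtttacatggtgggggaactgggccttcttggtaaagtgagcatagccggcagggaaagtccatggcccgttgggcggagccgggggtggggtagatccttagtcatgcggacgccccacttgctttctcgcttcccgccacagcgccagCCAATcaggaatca
Rrm2: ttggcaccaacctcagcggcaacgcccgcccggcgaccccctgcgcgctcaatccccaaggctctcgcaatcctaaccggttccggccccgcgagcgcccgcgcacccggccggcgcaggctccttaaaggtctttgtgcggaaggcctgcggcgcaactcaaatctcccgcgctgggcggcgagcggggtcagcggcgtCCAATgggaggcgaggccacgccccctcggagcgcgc

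CCAAT is the motif of the factor NF-Y, and TTTGAA and TTTAAA are forms of the element found near the start of many mitotic genes. In Kif11 they stood 45 and 19 bases before the start, both on the opposite strand, and in Top2a there were 6 CCAAT and 2 TTTGAA. Over the whole windows of 250 bases, CCAAT was found in 14 of the 16 mitotic genes with a promoter entry and in 5 of 6 of the DNA synthesis group, against 34.5% of 27025 promoters. TTTGAA or TTTAAA was found in 9 of 16 mitotic genes and 0 of 6 of the DNA synthesis group, against 25.5% of all promoters. The erythroid motifs GATAA and CACCC were found in 3 and 9 of the 16 mitotic genes, against 23.02% and 51.3% of promoters. A base could count toward more than 1 motif, and a match describes these letters only.

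A further group, of 12 genes, stood opposite to 2 smaller ones. The 12 genes, with a mean rho of 0.42, included Meis1, Adgrg1, Itga2b, F2r, Fli1, Emilin1, Angpt1, Mef2c, Adgrg3 and Pik3cg, many of them known from stem cells and megakaryocytes. Meis1 and Itga2b had a rho of 0.66 (0.71 in the 52 cells). At 100 CPM, 29 cells had both, 9 Itga2b alone, 2 Meis1 alone and 16 neither. Meis1 and F2r had a rho of 0.61 (0.70 in the 52 cells). The plot of genes that vary together shows 10 of the 12 genes low in the same cells and high in the same others, with a gradual passage between. This pattern is built in, since the genes were grouped by their correlation in these cells. The cells are also ordered by a list that holds some of the genes.

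An opposing group of 9 genes, with a mean rho of 0.40, held Ermap, Prdx6, Mt1, Atpif1, Atp5g1, Eif4ebp1, Cdv3, Ces2g and Ssr4. Prdx6, an antioxidant peroxiredoxin, was present in all cells at 160, 805 and 3560 CPM and had a rho of 0.65 with Ermap. Of the 9, only Ermap, Prdx6 and Ces2g were variable in the 52 cells, since the other 6 owed the call to cell 74 (Mt1 5590 CPM, Cdv3 5660 CPM). Ranks depend less on 1 cell, and the 9 genes had a median rho of 0.40 in the 56 cells and 0.39 in the 52. The other group, of 5 genes with a mean rho of 0.41, included Tfrc, Golm1, Kel and Pex3, with a median rho of 0.34 in the 52 cells. Kel and Pex3 lost the call as variable without cell 58, and Golm1 without cell 74. Tfrc and Ermap had a rho of 0.58, and at 100 CPM 31 cells had both, 4 Ermap alone, 10 Tfrc alone and 11 neither. Meis1 was opposed to Prdx6 (-0.68) and to Ermap (-0.61). At 100 CPM, 12 cells held both Ermap and Meis1, 23 Ermap alone, 19 Meis1 alone and 2 neither. Summed up as mean levels, the group of 12 had a rho of -0.68 with the group of 9 and -0.66 with the group of 5, the same 2 values in the 52 cells. Gata2, the GATA factor that precedes Gata1, had 0, 10 and 290 CPM and rho values of -0.61 with Ermap and 0.64 with the adhesion receptor Adgrg1.

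In the CFU-E plate these relations were weaker in the same genes. The 9 genes with Ermap had a median rho of 0.04 there and the 5 with Tfrc 0.07, against 0.40 and 0.39 in the 56 cells. The genes were grouped by their correlation in the 56 cells, which raises the values there, so lower values elsewhere are partly built in. Only 4 of the 12 genes with Meis1 were high enough there to be measured, with a median rho of 0.06. Meis1 itself had a mean of 3.37 CPM in CFU-E cells against 266 CPM here. Preparation or sequencing that differed between the 2 plates cannot be told apart from cell type, and the difference was not tested. In promoters, GATAA was found in 4 of 7 genes of the group with Ermap, 1 of 4 with Tfrc and 0 of 8 with Meis1, beside 0 of 6 in the DNA synthesis group and 23.02% of all promoters. CACCC was found in 5 of 7, 3 of 4 and 4 of 8, beside 4 of 6 in the DNA synthesis group and 51.3% of all promoters. With so few genes these counts show no more than which promoters hold the letters.

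**Figure D4:**
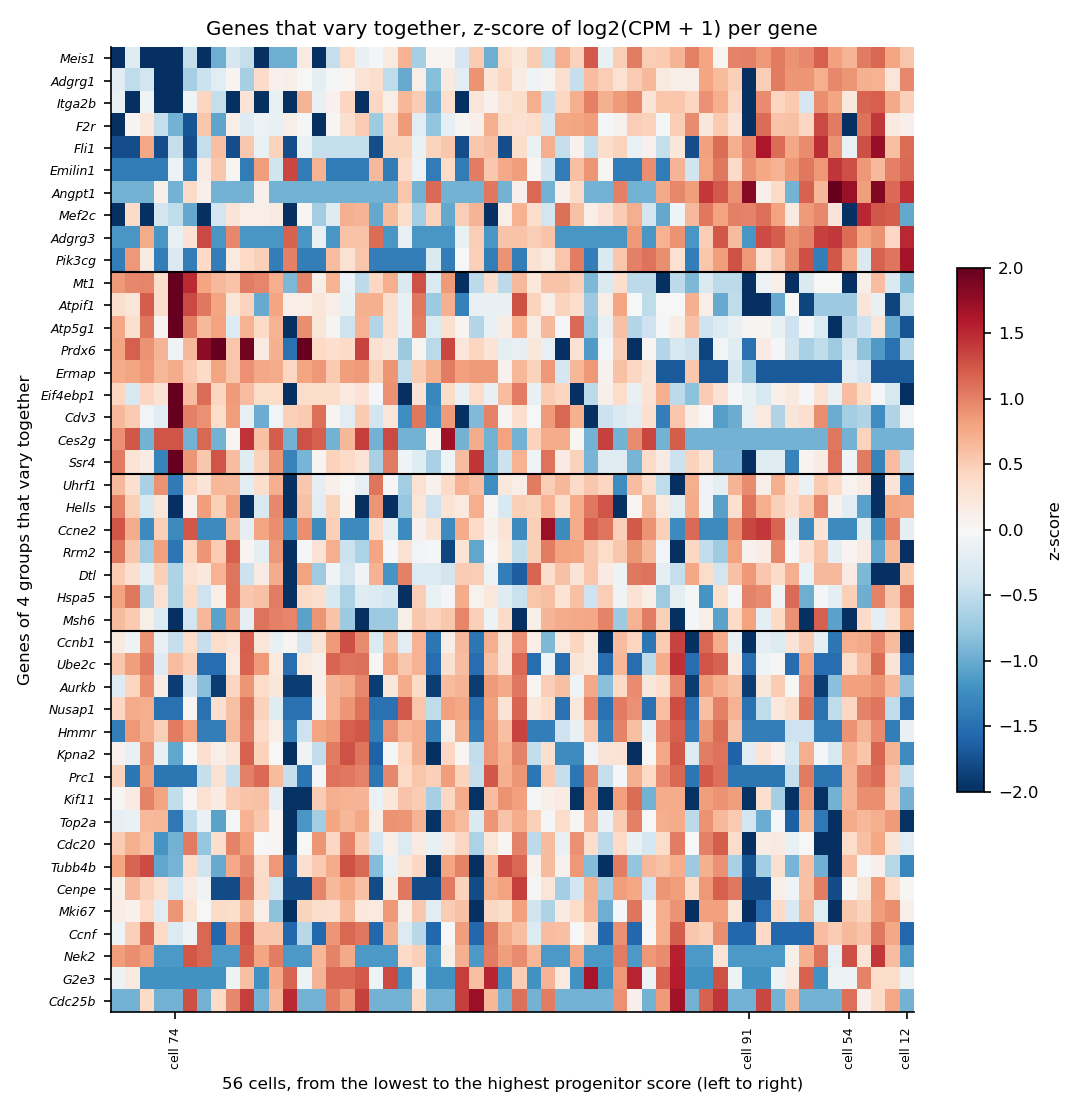
z-score of log2(CPM + 1) of each gene (color scale from -2 to 2) in 4 groups of genes that vary together, in 56 cells ordered from the lowest to the highest mean level of the progenitor list, which includes Meis1, Angpt1, Fli1 and Adgrg1. From top to bottom are 10 of the 12 genes with Meis1, the 9 with Ermap, the 7 of DNA synthesis and the 17 of mitosis; the first block runs from low to high, Ermap is at 0 in 13 cells, all on the right, and the mitotic block is high in cells scattered along the order.

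Car1 stood outside these groups. Its rho with the other 5 given markers lay between 0.10 and 0.23, inside the range of most gene pairs, and with Car2 it was 0.10. Klf1 and Epor, the erythropoietin receptor, had a rho of 0.61 (0.56 in the 52 cells), but both took part in choosing the cells, and the value is only a description. Apoe was opposed to Tfrc (-0.48) and joined the group with Meis1 only in the 52 cells.

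The largest group by size, 50 genes with a mean rho of 0.39, consisted of ribosomal proteins such as Rps10 and Rps15, together with respiratory chain subunits such as Cox4i1, Cox5b and Ndufa4. Their call as variable rested on cell 74. Of 30 ribosomal protein genes in the list, 14 were variable and 2 even in the 56 cells, and 0 variable and 12 even in the 52. For the nuclear-encoded respiratory subunits the counts were 4 variable and 3 even of 28, and then 0 and 14. Rps27 had a median of 75 CPM, 2860 CPM in cell 74, and an excess of 3.50 that became -2.18 in the 52 cells. Cox5b had a median of 85 CPM, 1350 CPM in cell 74, and an excess of 1.72 that became -1.67. The genes still varied together without the low cells, the ribosomal list having a median rho of 0.46 in the 56 cells and 0.43 in the 52, with 0.38 in CFU-E cells. Cell 74 also held 12990 CPM of the poly(A)-binding protein gene Pabpc1 and 35320 CPM of the noncoding RNA Gm26917.

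The list of G2 and M phase genes had the highest median rho of the lists measured in the 56 cells, 0.48, just above the ribosomal proteins. Of 36 measured genes of the G2 and M phases, 14 were variable in the 56 and in the 52 cells, beside 6.38% and 5.13% of all genes, and their median rho in the 52 cells was 0.47. Of 34 S phase genes 5 were variable (6 in the 52 cells), beside the same shares of all genes, with a median rho of 0.27 (0.26). Mcm6, a subunit of the replicative helicase, was present in all cells at 90, 1365 and 2760 CPM, and Pcna, the sliding clamp, at 20, 445 and 950 CPM. Fen1, the flap endonuclease, was the most even of the list with an excess of -1.79. Of 12 G1 regulators only Cdk6, a kinase of G1 progression, was variable (excess 1.04), a share near that of all genes. Cdk6 was present in every cell at 210, 885 and 3600 CPM, the highest in cell 58. Among the inhibitors of cyclin-dependent kinases, Cdkn1a had a mean of 3.93 CPM and Cdkn1b of 8.39 CPM.

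Scores per cell, the mean log2(CPM + 1) of the genes of a list at 20 CPM or more, describe the same axes. The erythroid score joined 64 genes of transcription factors, heme, iron and membrane without the genes that chose the cells, and ran from 3.22 to 6.28 with a median of 5.16. The progenitor score of 16 genes ran from 2.31 to 7.96 with a median of 4.73. Their rho was -0.47 in the 56 and the 52 cells. A score of 28 genes of ribosome biogenesis and MYC had a rho of 0.57 with the erythroid score (0.51 in the 52 cells) and of -0.28 with the progenitor score. The G2 and M score (36 genes) ran from 1.27 to 8.59 and the S score (34 genes) from 3.73 to 8.36, with a rho of -0.42, and -0.53 in the 52 cells. The lowest S and G2 and M scores were both in cell 58. Progenitor and G2 and M scores were not related in rank (-0.01). The G2 and M score had a rho of 0.65 with the number of genes with a count, and the erythroid score 0.41. The scores were made after thinning, but that number was taken before it and had a rho of 0.54 with total counts. With that number held constant, the erythroid score and the progenitor score had a rho of -0.56, the S and the G2 and M scores -0.46, and the erythroid and ribosome biogenesis scores 0.44. The wells carried 12 first and 8 second index sequences. Between first indexes of 3 to 6 cells each lay 39.1% of the variance of the erythroid score and 46.1% of that of genes with a count. For the progenitor score the share was 27.1%. Between second indexes, shares were 12.7% for the erythroid score and 32.5% for genes with a count. Small groups hold some of the variance in any case, and no reference share was computed. Within first indexes the erythroid and progenitor scores had a rho of -0.65. The part of the index in the scores was not tested further.

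**Figure D5:**
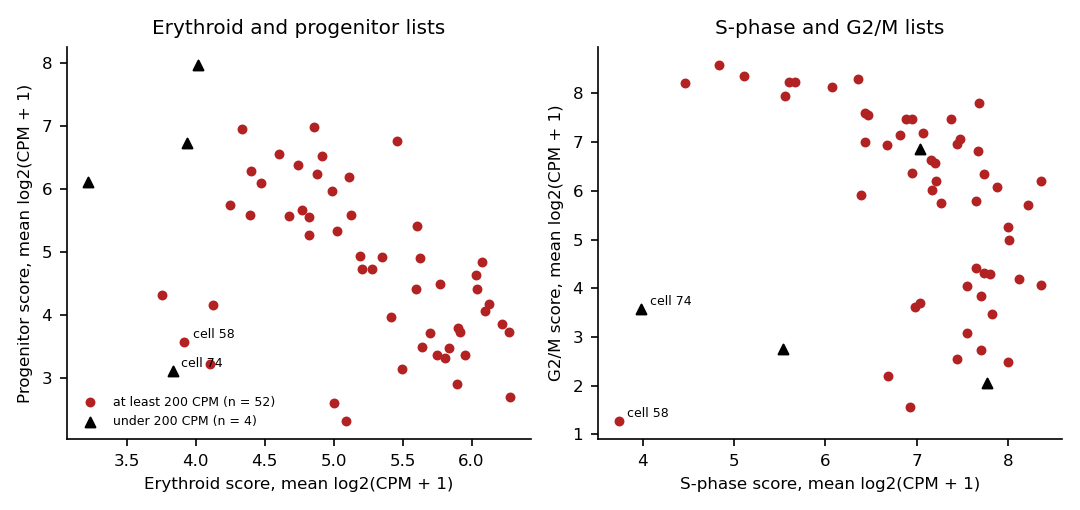
Mean log2(CPM + 1) per cell of the progenitor list against the erythroid lists (left) and of the G2 and M list against the S phase list (right). Red points are the 52 cells and black triangles the 4 cells under 200 CPM of the genes that chose the cells; cells with high progenitor scores tend to have low erythroid scores (rho -0.47), and the highest G2 and M scores lie at low to middle S scores (rho -0.42).

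Whether the cells fall into separate clusters depended on the settings. Clustering on 10 principal components of the 500 genes with the largest excess gave a best mean silhouette of 0.15 (0.13 in the 52 cells), under the 0.2 read as separation. With 5 components the best was 0.259, with groups of 21, 18 and 15 cells and cells 58 and 74 alone, and with median-of-ratios scaling 0.593, with cell 74 alone against 55 cells. The first component held 7.84% of the variance. Its low end was led by Ermap, Atp1b2, Car1, Trib2 and Tfrc and its high end by Plek, Tuba8, Meis1 and Angpt1, among others, and it had a rho of 0.91 with the progenitor score. The second held 5.81%, with Aurkb, Ube2c, Nusap1 and Aurka at its high end, and a rho of 0.88 with the G2 and M score. Both components were made from the cells they describe.

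The most even genes were housekeeping genes of splicing, respiration, redox balance and protein turnover. Sf3b4, a splicing factor, had an excess of -2.15, with 0, 50 and 140 CPM. Atp5g2, a subunit of ATP synthase, had 20, 80 and 170 CPM (excess -2.08), and Gpx4, the peroxidase that protects membranes from lipid peroxides, 0, 110 and 240 CPM (-1.95). Eif3i, a translation initiation factor subunit, had 150, 360 and 660 CPM, and Sumo2, a ubiquitin-like modifier, 20, 115 and 290 CPM. All 10 most even genes at 50 CPM or more kept an excess of -1 or less in the 52 cells. Hmga1, a chromatin protein of fetal progenitors, had 10, 265 and 440 CPM and an excess of -1.16.

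Genes that differ between the sexes split the cells. Xist, the noncoding RNA of the inactive X chromosome, was at 100 CPM or more in 22 cells and reached 2860 CPM in cell 58, with an excess of 3.02. The summed level of the Y-linked genes reached 100 CPM in 30 cells, and 0 cells had both at that level. The highest Y-linked sum among the 22 cells was 10 CPM, and the highest Xist level among the 30 was 20 CPM. Xist and Eif2s3y, a Y-linked translation factor, had the lowest rho of all pairs, -0.73. Cells of both sexes, and so of more than 1 embryo, were therefore on the plate.

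Of the 344 genes variable in the 52 cells, 192 were also measured in the CFU-E plate and 55 of these were variable there, which is 28.6% of the 192 and 17.9% of the 307 genes variable in CFU-E cells and measured here. In the CFU-E plate as a whole, 347 of 5470 genes (6.34%) were variable and 340 (6.22%) even. Kpna2, a nuclear import receptor, had an excess of 2.24 here and 2.23 there, and Ccnb1 2.23 and 1.44. Kit was variable here (1.70) and not there (0.21), where its mean was 72.5 CPM against 674 CPM here. Ermap had an excess of 1.25 here and -0.61 there. These differences between plates were not tested.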

How the data were processed

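For each cell the authors deposited raw gene counts. The submitters' processing notes name STAR 2.4 and featureCounts, without a version for the second, and the build GRCm38. Which annotation release they used, and how they treated strand and reads with several matches, is not given in the sources used here. Of 49466 genes, 49326 had a position and exon length in GENCODE M21. A further column (1) of values could not be matched to a cell and was not used. Wells received 1 cell each by the labels, and doublets were not searched for.

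Each kept cell was thinned to 100000 counts without replacement (seed 1), in Python 3.11.15 with numpy 2.4.6, pandas 2.3.3, scipy 1.17.1 and scikit-learn 1.9.0. The trend of variation was a running median over 101 genes, the script having been tested on simulated data. Intervals and floors cover counting error only, the floor being 3 counts over the 56 cells. The members, the 32 gene lists and the rule for named genes were chosen with earlier results of these data known. That rule took the 20 most abundant, 25 most variable and 10 most even genes, the 3 most and the 1 least variable of each list, the highest and lowest pairs, the leading genes of the largest groups, the given markers, the sort antigens and 3 markers of each other cell type. Other genes named as members of lists or groups, or for standing apart in a cell, were chosen after their values were seen. Of 605 list entries 4 symbols were not analysed here, and some genes that the rule names are not reported here. Alternatives changed the threshold, cell filter, thinning, scaling, trend, filter on level, correlation and clustering.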

Additional observations from a re-analysis of the deposited data

How the results depend on the processing

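The correlations of scores below kept their direction under every alternative that gave a value. So did the most variable genes that kept the call without their highest cell, and the most even genes. Genes whose call rested on cell 74 were not in that check, and some reversed. Rps28 had an excess of 4.31, and of -1.79 without its highest cell. The median excess of the ribosomal protein list was 0.38 in the 56 cells and -0.81 in the 52. The 431 variable genes became 684 with median-of-ratios scaling, 213 with each gene's highest cell left out and 722 with a filter at 5 CPM, which also took the even genes from 386 to 702 by testing more genes. The 155 genes that vary together became 72 in cells with at least 500000 counts and 4000 genes, 236 with median-of-ratios scaling, and, in alternatives chosen after seeing the data, 66 without cells 12, 54, 58, 74, 75 and 91 and 97 without cell 74. The rho of erythroid and progenitor scores, -0.47, was -0.60 under the stricter cell filter and -0.65 within first indexes, also added after seeing the data. The rho of S and G2 and M scores, -0.42, was -0.57 under that filter, -0.53 at 200 CPM and -0.67 without the 6 cells. The silhouette of 0.149 was 0.593 with median-of-ratios scaling, where cell 74 stood alone against 55 cells, and 0.259 with 5 principal components, with groups of 21, 18 and 15 cells beside cells 58 and 74 alone. Apart from the sizes named, the cause was not tested. Of the values of the checked variable and even genes under alternatives, 301 stayed on their side. A further 12 went under the threshold of 1, among them Lcp1 (0.88), Igfbp4 (0.94) and Coro1a (0.98) at 200 CPM. Genes near 20 CPM rest on about 2 counts per cell, which limits what their variation can show. No paired analysis was possible because the label numbers name wells, cells are not replicates and no test was made between groups.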

Other observations

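Of genes of metabolism and survival, a share near that of all genes was variable (6.38% of all genes). Of 20 glycolytic genes measured, only Pkm (excess 1.59) and Hk2 (1.03) were variable. Pkm, the pyruvate kinase of dividing cells, was present in all 56 cells at 10, 590 and 2860 CPM, the highest in cell 91, and remained variable in the 52 cells (1.61), where Hk2, a hexokinase also highest in cell 91, had 0.47. Of 12 genes of the amino acid stress response 0 were variable, and of 16 cholesterol synthesis genes 0 (1 of 15 in the 52 cells). Of 20 genes of apoptosis and autophagy 1 was variable, and Bax (-1.50) and Bnip3 (-1.02) were even. Of 28 genes of ribosome biogenesis and MYC, Mycn (2.10) and Nhp2 (1.87) were variable, with highest levels in cells 91 and 74, and neither was in the 52 cells. Myc itself had 0, 550 and 1520 CPM and an excess of 0.65.

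Of 8 measured genes of the fetal program of Lin28b, 0 were variable, beside 6.38% of all genes. With so few genes, 0 is near that share. Lin28b, the RNA-binding repressor of let-7 microRNAs, had 0, 80 and 470 CPM with a count in 44 cells and an excess of 0.55. Its partners Igf2bp1 and Igf2bp3, which bind and stabilise messenger RNAs, had medians of 100 and 105 CPM with counts in 51 and 53 cells. Lin28a had 0 counts in the 56 cells. Nr3c1, the glucocorticoid receptor known for its part in BFU-E self-renewal, had 0, 135 and 680 CPM with a count in 53 cells and an excess of 0.45, and of 10 measured genes of that list Bmpr2 (1.06) and Tgfbr2 (1.01), receptors of BMP and TGF-beta, were variable, against 1 of 9 in the 52 cells, where only Bmpr2 was, and 6.38% of all genes.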
